A study of Homo sapiens with 40 samples.

Results

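Histone H3 lysine 27 acetylation (H3K27ac) marks active promoters and enhancers, and the 9 genes described here encode proteins that place it, read it or remove it. The writers are EP300 and CREBBP, the readers are BRD2 and BRD3, and the erasers are HDAC1, HDAC2, HDAC3, SIRT1 and SIRT6. The genes were chosen by function from 20007 protein-coding genes in GENCODE 44. Their peaks were all those within 2 kb of a start site of a protein-coding transcript, in the gene body, or nearest to the gene within 100 kb. This gave 30 of 51489 H3K27ac peaks and 22 of 51457 peaks of CTCF, the zinc-finger protein at chromatin loop anchors. Of the deposited enhancer lists, 6 of 14886 regions in non-senescent cells and 4 of 13076 in senescent cells fell at these genes. Of 2435 senescence-specific regions of the retinoblastoma protein Rb, 0 did.

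EP300 and CREBBP are closely related acetyltransferases that acetylate lysine 27 at enhancers and promoters, and they serve as coactivators for many transcription factors. BRD2 and BRD3 belong to the BET family, whose bromodomains bind acetylated lysines on histone tails. HDAC1, HDAC2 and HDAC3 are class I deacetylases that act in corepressor complexes, and SIRT1 and SIRT6 are deacetylases that depend on NAD.

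Chromatin immunoprecipitation followed by sequencing was carried out on EndoC-βH3 cells, an established human beta-like cell line. Both groups were EndoC-βH3 cells labelled WT, a line that carries excisable immortalizing transgenes and the CreER recombinase. Senescent cells had received 4-hydroxytamoxifen (4-OHT) for 3 weeks, which activates CreER and removes the immortalizing genes, and non-senescent cells were labelled control. H3K27ac and CTCF were each measured in 3 senescent and 3 non-senescent libraries, and the region lists also drew on H3K4me1 and Rb, each in 2 and 2. The growth medium of both groups held nicotinamide, a known inhibitor of sirtuins. Exposure to 4-OHT and loss of the immortalizing genes coincide in this design and cannot be told apart. The labels do not say that libraries came from separate cultures, so the p-values cover only the spread between these libraries, which may be technical.

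The deposited tables give for each peak the authors' mean normalized count over the 6 libraries, the DESeq2 log2 fold change (senescent over non-senescent) with its standard error, and the adjusted p. They give no value per library. Gained and lost peaks are those with a fold change above 1.5 and an adjusted p under 0.05 for H3K27ac, or under 0.2 for CTCF. All intervals are 95% intervals of the deposited log2 fold change. Positions are in hg38, counted from 1. The mean counts of all H3K27ac peaks add up to 19239499 and those of all CTCF peaks to 6136424. Of 10 beta-cell markers, 10 had an H3K27ac peak at the promoter, whereas GCG, PPY, PRSS1, CFTR, COL1A1, COL3A1, PTPRC, PECAM1 and CDH5 had none. Promoter peaks were also present at SST, CPA1, KRT19 and CD68. The promoter of the proliferation gene MKI67 was lower in senescent cells by a log2 fold change of -2.29, and that of CDKN1A, the p21 gene, was higher by 2.50.

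The sequences below come from promoters and a peak that the H3K27ac results name. Whether their motifs bear on the H3K27ac changes was not tested. The first 3 are the 250 bases before the RefSeq start (RefSeq promoter table, hg38) of the genes whose promoter H3K27ac was higher at an adjusted p under 0.05. Capitals mark matches to motifs searched on both strands: E2F (TTTCCCGC or TTTGGCGC), CRE (TGACGTCA), ETS (CCGGAAG), NRF1 (GCATGCGC), YY1 (AAGATGGC) and NF-Y (CCAAT).
SIRT6 promoter, chr19:4182564-4182813, minus strand: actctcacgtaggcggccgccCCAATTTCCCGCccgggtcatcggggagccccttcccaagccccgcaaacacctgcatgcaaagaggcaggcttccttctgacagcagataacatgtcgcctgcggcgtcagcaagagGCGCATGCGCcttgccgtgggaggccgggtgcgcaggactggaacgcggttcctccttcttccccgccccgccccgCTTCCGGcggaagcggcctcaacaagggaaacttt
HDAC1 promoter, chr1:32291833-32292082, plus strand: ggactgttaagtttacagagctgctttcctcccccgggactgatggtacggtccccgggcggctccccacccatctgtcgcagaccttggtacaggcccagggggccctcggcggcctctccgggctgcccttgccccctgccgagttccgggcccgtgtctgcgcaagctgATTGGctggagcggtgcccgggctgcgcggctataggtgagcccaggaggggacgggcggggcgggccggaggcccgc
BRD3 promoter, chr9:134068027-134068276, minus strand: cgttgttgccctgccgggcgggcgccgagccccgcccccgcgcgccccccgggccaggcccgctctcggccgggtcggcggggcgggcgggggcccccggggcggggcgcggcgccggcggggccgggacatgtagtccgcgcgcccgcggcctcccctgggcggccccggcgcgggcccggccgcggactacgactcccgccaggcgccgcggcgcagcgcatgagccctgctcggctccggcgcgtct
The SIRT6 promoter held an NF-Y match at position -229 from the start, overlapping an E2F match at -225, then NRF1 matches on both strands at -111 and -109, which overlap each other, and an ETS match at -35. The HDAC1 promoter held an NF-Y match at -78, and the BRD3 promoter, with a GC content of 85.0% over its 300-base window, held no match. Of 35116 RefSeq promoters of 300 bases, 2.27% hold the E2F letters, 10.3% the ETS, 3.05% the NRF1, 2.89% the YY1, 1.85% the CRE and 34.6% the NF-Y letters. Among the other 6 members, the only match was YY1 at CREBBP, at position 20 after the start.

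The next sequence is the central 300 bases of the gained H3K27ac peak with the highest mean count inside CREBBP, plus strand, hg38. It was searched on both strands for AP-1 (TGANTCA), FOX (TGTTTAC), the E-box bound by NEUROD1 (CAGATG) and CRE (TGACGTCA).
CREBBP intron, chr16:3800974-3801273: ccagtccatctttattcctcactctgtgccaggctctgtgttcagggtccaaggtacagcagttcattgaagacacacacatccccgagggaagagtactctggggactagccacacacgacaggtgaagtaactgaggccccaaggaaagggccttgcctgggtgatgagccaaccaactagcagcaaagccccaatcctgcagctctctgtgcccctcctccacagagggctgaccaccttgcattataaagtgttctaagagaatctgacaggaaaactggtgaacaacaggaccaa
It held none of these letters. Among the centres of 37482 H3K27ac peaks outside promoters, 10.9% hold the AP-1 letters, 7.1% the FOX, 26.1% the E-box and 0.251% the CRE letters.

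At the main promoters of the 9 genes, 0 H3K27ac changes were called, and 3 were higher without the fold-change threshold. Inside CREBBP, H3K27ac was higher in senescent cells, relative to the typical peak. Of the 30 peaks, 5 were gained and 0 were lost, where 9.47% of all H3K27ac peaks were gained and 13.1% were lost. All 5 lay in the body of CREBBP. The log2 fold change was above 0 in 26 of the 30 peaks and in 26040 of all 51489 peaks. Its median was 0.29, against 0.0075 over all peaks. CREBBP, with 9 peaks, and HDAC1, with 8, were above 0 at every peak and hold most of the 30. The count above 0 is thus weighted to these genes. Among the 21 peaks whose mean count reached 50, the median was 0.063. Without CREBBP, a set chosen after its values were seen, 0 of 21 peaks were gained, 17 were above 0 and the median was 0.094.

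**Figure D1:**
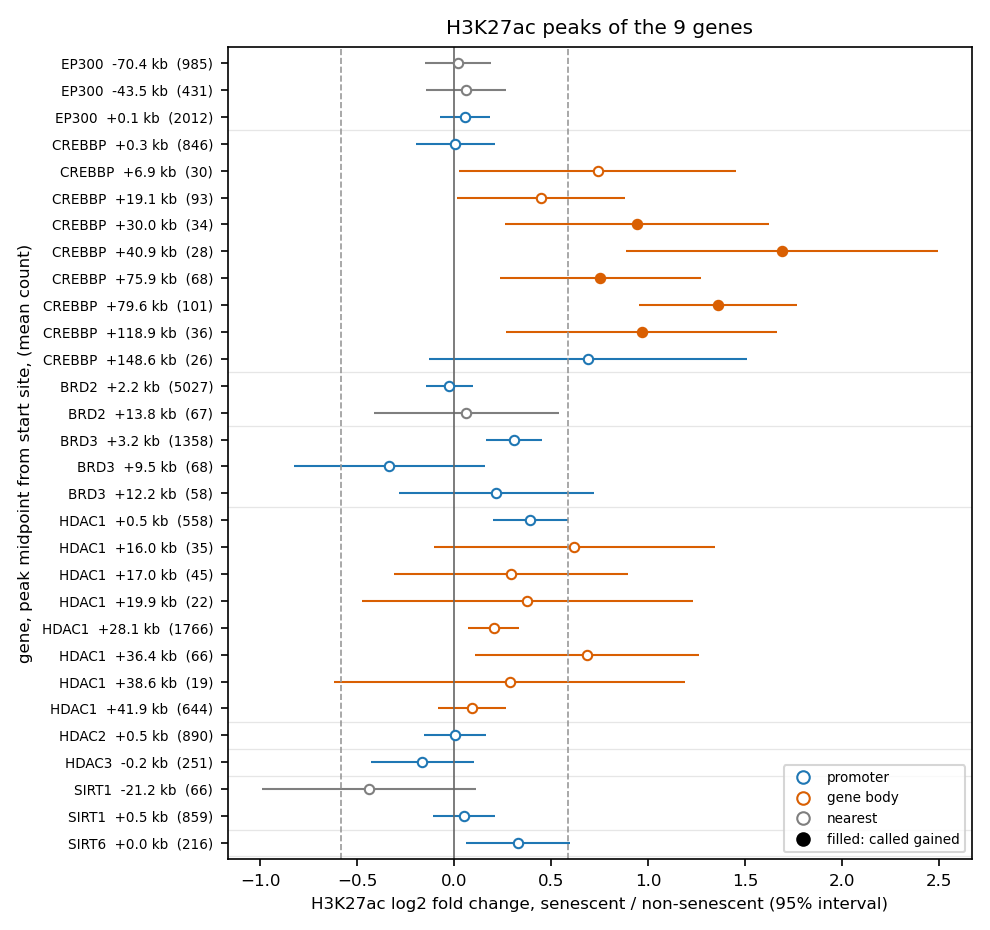
H3K27ac log2 fold change (x axis, senescent over non-senescent) of each of the 30 peaks, one row per peak with its distance from the canonical start site and, in brackets, its mean normalized count. Points are the deposited estimates, bars 95% intervals, colours the relation to the gene, dashed lines a fold change of 1.5, and filled points the 5 gained peaks, all of them within CREBBP.

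Taken as 1 peak per gene, the one with the highest mean count, 0 of the 9 promoters were gained or lost, where 4.53% of all promoter peaks were gained and 9.81% were lost. Among 9 promoters, counts of 0 are near these shares and are not a result about these genes. The log2 fold changes ran from -0.16 at HDAC3 to 0.39 at HDAC1, with a median of 0.051, against 0.033 over all 14007 promoter peaks. Without the fold-change threshold, 3 of the 9 were higher in senescent cells at an adjusted p under 0.05, and 22.9% of all promoter peaks were. These were HDAC1, BRD3 and SIRT6. The upper bounds of their intervals were 0.59, 0.45 and 0.60 on the log2 scale, where a fold change of 1.5 is 0.58.

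Promoter H3K27ac also differed in level between the genes. Mean count per kb was highest at BRD2, at 634, which is the 99.5th percentile of promoter peaks. It was 393 at EP300, 299 at HDAC2, 295 at CREBBP and 254 at SIRT1. The lower levels were 155 at HDAC1, 142 at BRD3, 121 at SIRT6 and 107 at HDAC3. Within this set, the genes with the 3 higher fold changes were thus among the 4 with the least H3K27ac per kb. That order depends on dividing by peak width. By mean count, BRD3, with a peak 9568 bp wide, stood at 1358. This was above HDAC2 at 890, SIRT1 at 859 and CREBBP at 846, while HDAC1 at 558 and SIRT6 at 216 stayed below them. Among all promoter peaks, HDAC1, BRD3 and SIRT6 lay at percentiles 51.2, 46.6 and 38.9. A link between level and fold change was not tested.

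Among the writers, EP300 had 3 H3K27ac peaks and none changed past the threshold. The promoter peak at chr22:41090084-41095207 covers the first exon and 5′ untranslated region of EP300 and also the microRNA gene MIR1281. Its mean count was 2012 and its log2 fold change was 0.058 ± 0.066 (standard error), with an interval from -0.072 to 0.19. A pair of upstream peaks nearest to EP300, at -70.4 and -43.5 kb from the start, lay in enhancers listed in both states. Their mean counts were 985 and 431 and their log2 fold changes 0.018 ± 0.087 and 0.062 ± 0.11. The interval at the stronger one, from -0.15 to 0.19, leaves room for a fold change of at most 1.14.

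CREBBP, on the minus strand at chr16:3725054-3880713, had 9 peaks. At the promoter, chr16:3878983-3881851, the mean count was 846 and the log2 fold change was 0.0049 ± 0.10, with an interval from -0.20 to 0.21, a fold change between 0.871 and 1.16. The peaks further into the gene were all above 0. Of the 7 outside promoters, 5 were gained and 0 were lost, with a median log2 fold change of 0.94, where 11.4% of such peaks in all protein-coding genes were gained and their median was 0.052.

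The strongest of the 7, 79.6 kb into the gene at chr16:3800226-3802022, had a mean count of 101 and a log2 fold change of 1.36 ± 0.21, a fold change of 2.57 with an interval from 1.93 to 3.40. It has the same bounds as an enhancer in the senescent list and lies outside the non-senescent enhancers. The study defined enhancers by H3K27ac together with H3K4me1, so this match is not separate support for the fold change. This peak alone of the 5 passed a test against a fold change of 1.5 rather than no change, at an adjusted p of 0.0059. A neighbour at chr16:3804008-3805547 had a mean count of 68.0 and a log2 fold change of 0.75 ± 0.26, with an adjusted p of 0.014.

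The largest fold change of the set, 3.23 with an interval from 1.85 to 5.64, was at chr16:3839340-3840244, 40.9 kb into the gene. Its log2 fold change was 1.69 ± 0.41 on a mean count of 28.3. The other gained peaks were at chr16:3761458-3762248, with a log2 fold change of 0.97 ± 0.36 and a mean count of 36.1, and at chr16:3850208-3851228, with 0.94 ± 0.35 and 33.6. Both had an adjusted p of 0.020. The last of these overlaps an exon of the canonical transcript, and the other 4 gained peaks are intronic.

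A peak at chr16:3860627-3862646, which overlaps the only non-senescent enhancer listed in CREBBP, was not called, at 0.45 ± 0.22 with an adjusted p of 0.094. An intronic peak 6.91 kb from the start, at 0.74 ± 0.36, was not called either, with an adjusted p of 0.093. The same held for a peak near an alternative start 148.6 kb into the gene, at 0.69 ± 0.42 and 0.19. CREBBP thus had 1 region in each enhancer list, at different places. Over the whole table, 10242 H3K27ac peaks overlapped both lists, 4291 the non-senescent list alone and 2623 the senescent list alone.

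**Figure D2:**
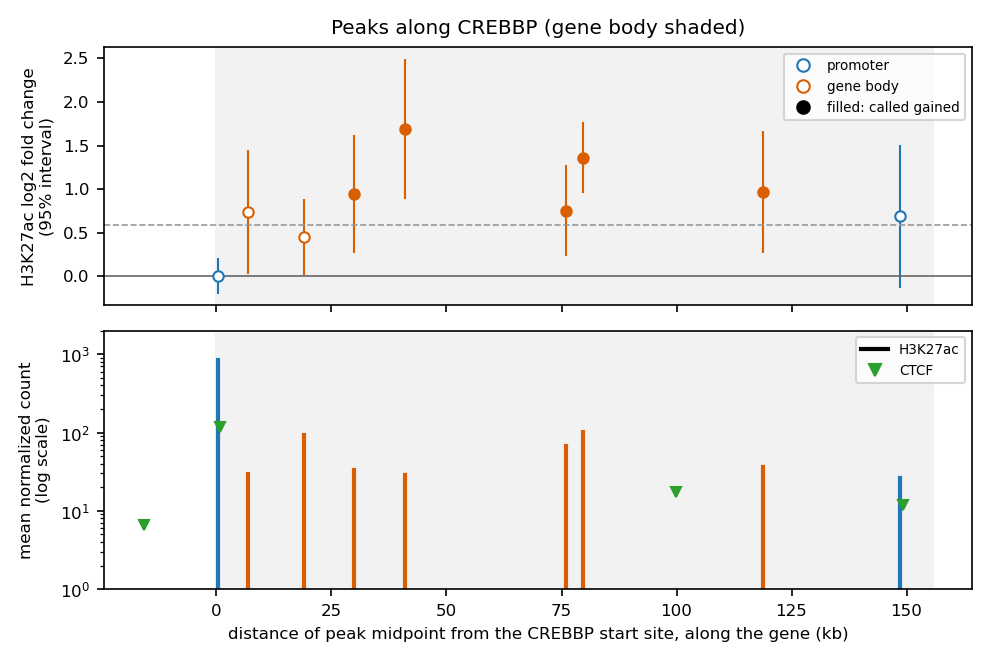
Peaks along CREBBP by distance of the midpoint from the start site in kb. The upper panel gives the H3K27ac log2 fold change with 95% intervals (dashed line, fold change of 1.5), near 0 at the promoter and above 0 at the other 8 peaks, and the lower panel gives mean normalized counts on a log scale, where the promoter peak stands at 846 and the 8 others between 26.0 and 101.

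The signal inside CREBBP was low. The 7 peaks had between 28.3 and 101 mean counts, and their counts per kb lay between 31.3 and 56.0. Among 7145 gene body peaks in the same range of mean counts, 13.4% were gained and 12.3% were lost, with a median log2 fold change of 0.069. Of 853 genes with at least 7 such peaks, 46 had at least 5 gained. The median fold change was as high in 2 of them, CREBBP included (0.234%), and the median over these genes was 0.038. CREBBP was singled out after its values were seen, so these counts are a description. Requiring an adjusted p under 0.01 or a mean count of 50 or more left 2 of its gained peaks.

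Among the readers, BRD2 carried the strongest promoter of the set. The peak at chr6:32966816-32974744 had a mean count of 5027 and a log2 fold change of -0.025 ± 0.062. Its interval, from -0.15 to 0.097, is a fold change between 0.903 and 1.07. It spans 7929 bp and also covers the start of HLA-DMA, so it is not particular to BRD2. A weak peak just past the end of BRD2 had a mean count of 67.0 and a log2 fold change of 0.063 ± 0.24. No enhancer of either list lay at BRD2, and the closest in the non-senescent list was 455828 bp from its start.

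BRD3 had 3 peaks within 2 kb of its start sites. The main peak, at chr9:134060022-134069589, is 9568 bp wide with a mean count of 1358 and a log2 fold change of 0.31 ± 0.073, an interval from 0.17 to 0.45 and an adjusted p of 0.00013. The fold change of 1.24 was below the threshold. An enhancer of the non-senescent list lies inside this peak, 5154 bp from the canonical start, and none of the senescent list does. The other 2 peaks, near alternative starts, differed in sign, at 0.22 ± 0.26 and -0.33 ± 0.25, and both 95% intervals included 0.

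Among the erasers, HDAC1 had 8 peaks, all above 0 and none called. The promoter peak at chr1:32290816-32294401 had a mean count of 558 and a log2 fold change of 0.39 ± 0.098, with an interval from 0.20 to 0.59 and an adjusted p of 0.00032. The 7 peaks in the gene body ran from 0.094 to 0.68. The strongest of these, at chr1:32315163-32325115, lay in enhancers of both lists, with a mean count of 1766 and a log2 fold change of 0.20 ± 0.067 at an adjusted p of 0.0079. The peak at the 3′ end of HDAC1, at 0.094 ± 0.090, also covers the promoter of MARCKSL1, and 4 of the 7 lie nearer to the start of MARCKSL1 than to that of HDAC1. The other 5 had mean counts between 18.9 and 66.1 and standard errors between 0.29 and 0.46, so a fold change of 1.5 was within the error at each.

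HDAC2 and HDAC3, which act with corepressors as HDAC1 does, had 1 H3K27ac peak each. The HDAC2 promoter, chr6:113969189-113972164, had a mean count of 890 and a log2 fold change of 0.0046 ± 0.082, with an interval from -0.16 to 0.17. The HDAC3 promoter, chr5:141635919-141638269, had a mean count of 251 and a log2 fold change of -0.16 ± 0.13, with an interval from -0.43 to 0.10. This peak is shared with the promoter of RELL2. Both intervals include 0, and neither gene had a listed enhancer.

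The sirtuins likewise had few peaks. The SIRT1 promoter, chr10:67883477-67886856, had a mean count of 859 and a log2 fold change of 0.051 ± 0.081. A peak at -21.2 kb from the SIRT1 start, in an enhancer of the non-senescent list alone, was at -0.44 ± 0.28, and its adjusted p was 0.21. The SIRT6 promoter, chr19:4181663-4183448, had a mean count of 216 and a log2 fold change of 0.33 ± 0.14, with an interval from 0.059 to 0.60 and an adjusted p of 0.044. That peak also covers the start of ANKRD24, so the higher signal cannot be assigned to either gene.

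For context, 38 other genes of acetylation were taken by function, namely 10 acetyltransferases, 8 deacetylases, 5 sirtuins and 15 subunits or partners of corepressor complexes. A promoter H3K27ac peak was present at 37 of them, all but HDAC7. Just 1 was gained and none (0) was lost, and without the fold-change threshold 6 were higher and 4 lower at an adjusted p under 0.05, with a median log2 fold change of 0.067. Of all promoter peaks, 4.53% were gained and 9.81% lost, and 22.9% were higher and 19.4% lower without the fold-change threshold. The gained promoter was that of SIRT7, a nuclear sirtuin, at 0.65 ± 0.064 with a mean count of 4318. The peak also covers the promoter of MAFG. By group, 2 acetyltransferases, 1 deacetylase and 2 sirtuins were higher, and 1 deacetylase was lower. Of the corepressor subunits, 1 was higher and 3 were lower.

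**Figure D3:**
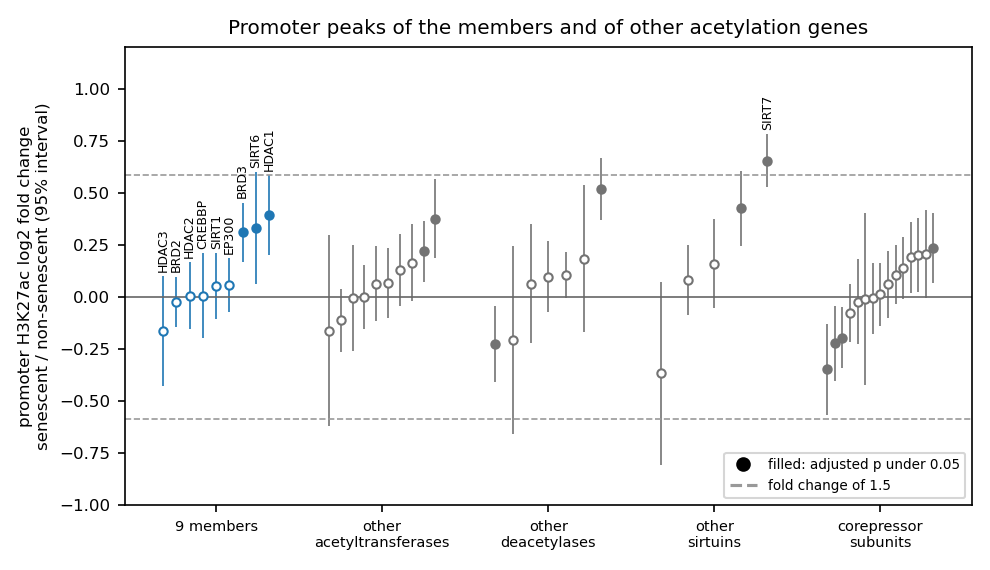
Promoter H3K27ac log2 fold change (y axis, 95% intervals) at the 9 members (blue, named) and at 37 other acetylation genes by group (grey). Filled points passed an adjusted p under 0.05 and dashed lines mark a fold change of 1.5. The 9 members lie between -0.16 and 0.39, inside the dashed lines, and SIRT7 is the only named point of the other groups, at 0.65.

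CTCF at these genes showed no called change. Of the 22 peaks, 0 were gained and 0 were lost by the deposited DESeq2 test, where 2.29% of all CTCF peaks were gained and 3.28% were lost. Counts of 0 among 22 are near these shares and are not a result about these genes. At an unadjusted p under 0.05 there was 1 peak, in the HDAC2 region, and its adjusted p was 0.22. Among 22 tests, 1 such p can arise without any change, so it is not a result about HDAC2. For promoter peaks the shares were 0.488% gained and 4.42% lost. The deposited table gives no adjusted p for 10 of the 22, which had low counts. The 9 peaks whose mean count reached 50 had log2 fold changes between -0.31 and 0.37, and the 13 weaker ones ran from -0.77 to 1.60 with a median standard error of 0.63. At those 13 a fold change of 1.5 was not detectable.

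**Figure D4:**
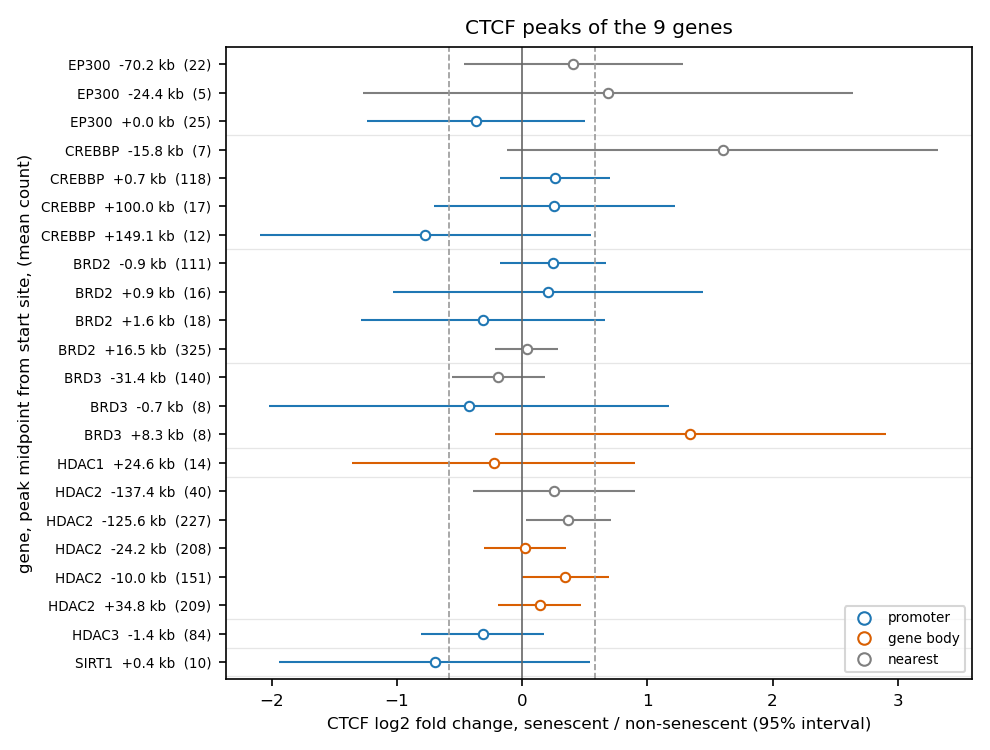
CTCF log2 fold change (x axis, senescent over non-senescent, 95% intervals) of the 22 peaks, one row per peak with its distance from the canonical start site and its mean count in brackets. Dashed lines mark a fold change of 1.5, and no point is filled because no peak was called. The widest intervals belong to peaks with mean counts under 50.

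Promoter CTCF peaks were present at 6 of the 9 genes, and HDAC1, HDAC2 and SIRT6 had none. SIRT6 had no CTCF peak by any of the criteria. CREBBP and BRD2 had the strongest promoter peaks. At CREBBP the mean count was 118 and the log2 fold change 0.26 ± 0.23, with an adjusted p of 0.54. At BRD2 they were 111 and 0.25 ± 0.22, with 0.55, and this peak too lies beside HLA-DMA. At HDAC3 the mean count was 84.2 and the log2 fold change -0.31 ± 0.25. The peaks at EP300, SIRT1 and BRD3 were weak, with mean counts of 25.4, 10.4 and 8.12, and their log2 fold changes were -0.37 ± 0.45, -0.70 ± 0.63 and -0.42 ± 0.82. Of the 22 CTCF peaks, 10 lay in an H3K27ac peak.

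HDAC2 had the most CTCF peaks, 5, which lay in its gene body or beyond its upstream end and outside H3K27ac peaks. Of these, 4 hold the CTCF core motif, allowing 1 mismatch. These sites are printed with the one in the strongest CTCF peak near BRD2, in hg38, on the strand of the motif, with the 12 core bases in capitals.
HDAC2 gene body, chr6:113936286-113936315, minus strand: ctcactgtaCCACAAGATGGCagatactgc
HDAC2 gene body, chr6:113995063-113995092, plus strand: actaaagaaCCACCAGGGTGCagcattcct
Upstream of HDAC2, inside HS3ST5, chr6:114096742-114096771, plus strand: atataagtgCCACTAGGGGGCtctctaata
Upstream of HDAC2, inside HS3ST5, chr6:114108469-114108498, minus strand: gggccggcaTCACCAGGTGGCcacaagctc
Past the end of BRD2, chr6:32984515-32984544, plus strand: tgctgtgggCCAGTAGGGAGCtaggagata
The last 2 HDAC2 peaks lie 84578 and 96894 bp from an HDAC2 start and within HS3ST5 and the noncoding gene HDAC2-AS2, so they are not particular to HDAC2. The peak of the second printed site and the HDAC2 peak with no core motif also overlap HDAC2-AS2. Both lie in the annotated gene body but upstream of the canonical HDAC2 start, at -24.2 and -10.0 kb. The third HDAC2 site matches the core without a mismatch. Its peak had a mean count of 227 and a log2 fold change of 0.37 ± 0.17, with an adjusted p of 0.22, the lowest adjusted p among the 12 peaks that had one. The peaks of the other printed HDAC2 sites, in the order given, had mean counts of 209, 208 and 39.6 and log2 fold changes of 0.14 ± 0.17, 0.022 ± 0.17 and 0.25 ± 0.33. The remaining HDAC2 peak, with no such core, was at 0.35 ± 0.18. The BRD2 peak had the highest mean count of the set, 325, and a log2 fold change of 0.037 ± 0.13.

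Allowing 1 mismatch, the core motif occurred in 8 of these 22 peaks (36.4%), in 47.2% of all CTCF peaks, in 34.6% of CTCF peaks at promoters and in 6.7% of regions shifted by 10 kb. None of the 6 strongest promoter peaks, 1 per gene, held it.

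CTCF fold changes also moved with base composition over the whole table. The median log2 fold change fell from 0.22 among the most AT-rich of 10 equal groups of peaks to -0.31 among the most GC-rich. The HDAC2 peak without a mismatch has a GC content of 32.0%, and the CREBBP promoter peak 75.8%. The trend to remove was fitted on CTCF peaks outside promoters, listed enhancers and H3K27ac peaks, which leaves out the CREBBP promoter peak. The GC content of that peak lies past the last point of the fit, whose value was used for it. With the trend removed, the HDAC2 peak came to 0.14 with an adjusted p of 0.81, and the CREBBP promoter peak to 0.56 with an adjusted p of 0.23. Neither was called before or after.

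**Figure D5:**
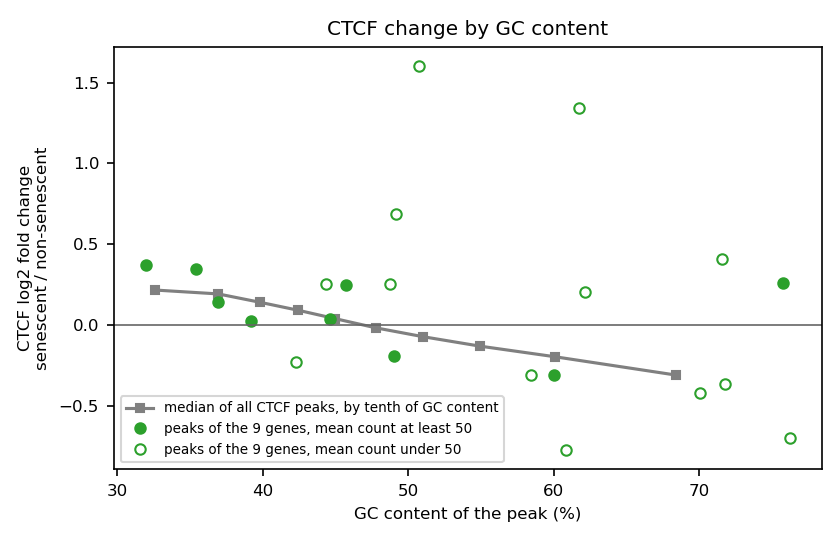
CTCF log2 fold change (y axis) against the GC content of the peak in percent. Squares joined by a line are the medians of all CTCF peaks in 10 equal groups by GC content, falling from 0.22 to -0.31, and circles are the 22 peaks of the 9 genes (filled, mean count of at least 50). Among the filled circles the CREBBP promoter, at 75.8% GC and 0.26, lies farthest above the line.

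No Rb region lay at any of the 9 genes. By the same criteria, 752 of the 20007 protein-coding genes (3.76%) had an Rb region, so a count of 0 among 9 is near that background and is not a result about these genes. The closest to a start site was 75598 bp from that of BRD3 and is nearest to VAV2, and the next was 187410 bp from that of BRD2. The list holds only regions that the authors called in senescent cells against non-senescent ones, so it does not show Rb binding present in both states.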

How the data were processed

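Following the study's methods, trimmed reads were aligned to hg38 with Bowtie2 by the authors, who used HOMER for the histone marks and MACS2 for CTCF and Rb peaks and ran DESeq2 on raw counts in peaks. How replicates were combined into peak lists is not given in the sources used here. The deposited tables hold the result of such a comparison. The methods describe a motif filter on CTCF peaks before testing, yet 47.2% of the deposited CTCF peaks hold the core motif at up to 1 mismatch. Whether the table is from before that filter is not known, and the CTCF shares and adjusted p-values refer to the table as deposited. The authors' mean signal is the mean of size-factor-normalized read counts, the deposited fold changes and their errors are log2 values, the deposited Wald score equals their ratio in all rows, and the deposited p-values were adjusted by the authors. Because of the size factors, changes are relative to the typical peak and a shift of a whole mark is not visible. The enhancer and Rb lists hold positions only.

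A test on counts had been planned if counts per library were given. The tables hold none, so thresholds were applied to the authors' values and no model was refitted. The adjusted p-values equalled Benjamini-Hochberg values over 51489 H3K27ac and 39485 CTCF peaks. Peaks were assigned with GENCODE 44 by an overlap of at least 1 bp. The tests against a fold change of 1.5 used the deposited estimates and errors. The GC trend was a median over 20 bins of CTCF peaks outside promoters, listed enhancers and H3K27ac peaks. Both were tested on simulated data. The analysis used Python 3.11.15, numpy 2.4.6, pandas 2.3.3, scipy 1.17.1, pysam 0.24.0 and matplotlib 3.10.9. The text names all 9 members and, of the other acetylation genes, those whose promoter was called, and HDAC7 was named after its values were seen. The members and lists were chosen with earlier results of these data known.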

Additional observations from a re-analysis of the deposited data

How the results depend on the processing

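The 5 gained H3K27ac peaks, all in CREBBP, became 2 at an adjusted p under 0.01, 2 at a fold change above 2, 9 without a fold-change threshold, 1 in a test against a fold change of 1.5, and 2 among peaks whose mean count reached 50. In CREBBP alone these counts were 2, 2, 5, 1 and 2. Without a fold-change threshold, 9726 of all 51489 H3K27ac peaks were higher at an adjusted p under 0.05. The shares over all peaks under the other settings are not given, so those counts only describe the 30 peaks. The counts of lost H3K27ac peaks and of gained and lost CTCF peaks stayed at 0 under every alternative run. Alternatives that tighten a threshold or drop peaks cannot raise a count of 0. Leaving out the fold-change threshold could have raised it, as could adjusting over all CTCF peaks or removing the GC trend. The median H3K27ac log2 fold change of the members fell from 0.29 to 0.051 with 1 peak per gene and to 0.063 among peaks whose mean count reached 50. Of 66 recomputed promoter fold changes, 0 crossed the call threshold and 2 reversed. With the median of promoter peaks subtracted, CREBBP came to -0.028 and HDAC2 to -0.028. Many of the 66 could not differ, so the count of 0 is no measure of stability. Windows of 1 kb and the canonical start alone picked the same peak at every promoter. Means weighted by count kept the call of the main peak, and at most promoters they rest on 1 peak. For the other acetylation genes, a fold change above 2 left 0 gained H3K27ac promoters, and no fold-change threshold gave 6 gained and 4 lost. No paired analysis was possible because the tables carry no values per library, and for the same reason no library could be left out. The median standard error was 0.23 for the H3K27ac peaks of the 9 genes, with a median mean count of 80.3, and 0.45 for their CTCF peaks, with 23.8. The value without CREBBP was chosen after seeing the data.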
